A study of Homo sapiens with 6 samples.

Results

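The heat shock proteins and cytosolic chaperones were followed through a low dose of camptothecin in hTERT RPE-1 cells. The set held every protein-coding gene of the deposited table whose symbol named an HSPA, HSPB, HSPH1, HSP90A, HSPD1, HSPE1, DNAJA, DNAJB or DNAJC protein, a CCT subunit, TCP1, HSF1 or HSF2. HSPA5, DNAJB9 and DNAJC3, which serve the endoplasmic reticulum, were left out of it. This gave 68 gene identifiers of 13696 in all, under 67 symbols, since HSPA14 was listed under a pair of overlapping identifiers. HSPA4L was named as of interest by the rule that chose the set. That choice was made with earlier results of these data known, so the HSPA4L values below are not an independent test. The 3 pre-dosed libraries came from cells given 25 nM camptothecin for 1 h and then kept 24 h without drug before harvest. The 3 untreated libraries came from cells of the same line without the drug. hTERT RPE-1 is a human retinal pigment epithelial line kept dividing by the telomerase subunit hTERT, which both groups carry. Camptothecin holds topoisomerase 1 in its DNA-bound form and so leaves breaks in DNA. By its title the study concerns how cells adapt to inhibitors of this enzyme, and the comparison asks what the pre-dose left behind in the transcriptome.

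Molecular chaperones bind unfolded protein chains and keep them from aggregating until they fold. HSP70 proteins bind and release such chains in a cycle driven by ATP, which J-domain proteins start and nucleotide exchange factors, among them the HSP110 proteins, reset. HSP90 finishes the folding of kinases and hormone receptors, the ring-shaped CCT complex folds actin and tubulin, HSPD1 and HSPE1 form the folding chamber of mitochondria, and small heat shock proteins hold unfolded chains without ATP. Heat and other protein stress release the transcription factor HSF1, which then binds heat shock elements, repeats of the letters GAA and its reverse complement, in front of many of these genes.

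The libraries had effective totals of 26336942 to 31780392 reads, inferred by taking the lowest deposited value of each library as 0.5 reads. Values below are CPM, counts scaled to the effective total, taken from the authors' log2 CPM. All 68 members passed the filter of a mean of 1 CPM, and the lowest mean was 1.63 CPM, of HSPA1L. Both replicate 1 libraries stood apart from the other 4, over all genes and over the members, and the labels name no batch, so values are also given within each replicate number. Of 14 markers of retinal pigment epithelium, 4 were listed in the table (BEST1, MITF, OTX2 and RDH5), with sums of 79.6 to 88.1 CPM in pre-dosed libraries and 76.7 to 80.6 CPM in untreated ones, while RPE65, RLBP1 and TYR were not listed. Of 5 markers of simple epithelium, KRT8 (869 to 979 CPM) and KRT18 (413 to 461 CPM) were listed, while KRT19, CDH1 and EPCAM were not. Of 5 mesenchymal markers, VIM, FN1, CDH2 and COL1A1 were listed and COL1A2 was not, and VIM and FN1 were among the abundant genes. Of 10 markers of blood, endothelium, neurons and keratinocytes only TUBB3 was listed, at 255 to 374 CPM in pre-dosed libraries and 271 to 400 CPM in untreated libraries. In bulk RNA, fewer cells of a kind and less RNA per cell cannot be told apart. Whether the replicates were separate cultures is not in the labels, so a p-value here measures only how far these samples spread, and that spread may be technical.

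Among the 68 chaperone genes HSPA4L was the one that was higher in every pre-dosed library than in every untreated library, by 34.3% in the means. None of the 68 passed the limma test over all genes at an adjusted p of 0.05, in either direction, and neither did any of the 13616 genes tested (0%). At an unadjusted p under 0.05 limma gave 1 member higher in pre-dosed cells, HSPA4L, against 1.25% of all genes, and 0 members lower, against 0.808% of all genes. The voom method, run on the estimated counts behind the deposited values, also gave 0 members at the adjusted threshold and 1 at the unadjusted one, against 2.04% of all genes. The groups did not overlap with the pre-dosed cells higher for 1 member (3.36% of all genes) and with the pre-dosed cells lower for 3 members (3.19% of all genes), namely DNAJB11, DNAJC1 and DNAJC30. These shares of the members, 1.47% and 4.41%, were near those of all genes. How many members passed depended on the weight given to single libraries: limma called 5 of the 68 with replicates 2 and 3 alone (6.36% of all genes), and 13 with library quality weights (27.5% of all genes). Of the 13, 6 were higher in pre-dosed cells (8.82%, against 14.4% of all genes) and 7 lower (10.3%, against 13.1% of all genes). The estimation of these weights stopped before its convergence tolerance was reached, and it put a weight of 28.8 on pre-dosed replicate 3 and at most 2.62 on any other library, so these calls are given below as values of that fit only.

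HSPA4L (ENSG00000164070) lies on chromosome 4, chr4:127781821-127840733 on the plus strand of GRCh38 in GENCODE release 29, and encodes an HSP110 protein, a large relative of HSP70 that resets HSP70 by nucleotide exchange. It had 20.0, 21.5 and 21.7 CPM in pre-dosed replicates 1, 2 and 3, against 16.3, 15.6 and 15.1 CPM in untreated replicates 1, 2 and 3. The lowest pre-dosed library was above the highest untreated one. The means were 21.1 ± 0.901 CPM in pre-dosed cells and 15.7 ± 0.635 CPM in untreated cells (SD, n = 3 each), a ratio of 1.34. On the log2(CPM + 1) scale the difference was 0.40 (SE 0.07, 95% interval 0.24 to 0.57), and within the replicate numbers it was 0.28, 0.44 and 0.50. Its limma p was 0.000683 before adjustment, rank 2 of 13616 genes, and 1.00 after adjustment. An exact two-sided permutation test of the 6 libraries gave p = 0.1, the smallest that 3 against 3 allows.

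Whether HSPA4L passed depended on the weight of the replicate 1 libraries. With replicates 2 and 3 alone, limma gave a difference of 0.47 (SE 0.07) with an adjusted p of 0.00272, where 2.89% of all genes were called higher in pre-dosed cells and 3.47% lower. A block for the replicate number gave HSPA4L an unadjusted p of 0.000243 and an adjusted p of 0.174. In the authors' deposited table HSPA4L had a log2 fold change of 0.49, an adjusted p of 0.0137 and rank 3 of all genes by p, and 1.61% of genes were called higher in pre-dosed cells there. A limma-voom fit with library quality weights, chosen after seeing the data, gave 0.49 with an adjusted p of 0.0192, where 0.485% of all genes were called higher. The difference in replicate 1 minus that in replicates 2 and 3 was -0.19 (SE 0.11), and this did not pass the interaction test in limma (unadjusted p 0.129, adjusted p 0.549). HSPA4L was also level between the replicate numbers, with replicate 1 minus replicates 2 and 3 at -0.01 (SE 0.06).

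The groups overlapped for the other HSP110 genes. HSPA4, a constitutive HSP110 protein, had 184, 174 and 184 CPM in pre-dosed replicates 1 to 3, against 179, 178 and 178 CPM in untreated replicates 1 to 3. HSPH1, a heat-inducible HSP110 protein, had 125, 103 and 107 CPM in pre-dosed replicates 1 to 3, against 119, 106 and 102 CPM in untreated replicates 1 to 3. The log2 differences were 0.02 (95% interval -0.10 to 0.14) for HSPA4 and 0.03 (95% interval -0.19 to 0.25) for HSPH1. As a percentage of the HSPA4 CPM, not corrected for length, HSPA4L stood at 10.9, 12.4 and 11.8% in pre-dosed replicates 1 to 3, against 9.10, 8.78 and 8.48% in untreated replicates 1 to 3. As a percentage of the HSPH1 CPM it stood at 16.0, 20.9 and 20.2% in pre-dosed replicates 1 to 3, against 13.8, 14.7 and 14.7% in untreated replicates 1 to 3. Neither ratio overlapped between the groups, and each gave an exact permutation p of 0.1, again the smallest possible. Both ratios rest on the same HSPA4L values, set against genes that differed little, so they are not further tests of HSPA4L. HSPA4L was the least abundant of the 3 per length, at 1.65 CPM per kilobase of exon over all libraries, against 37.0 for HSPA4 and 19.5 for HSPH1.

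**Figure D1:**
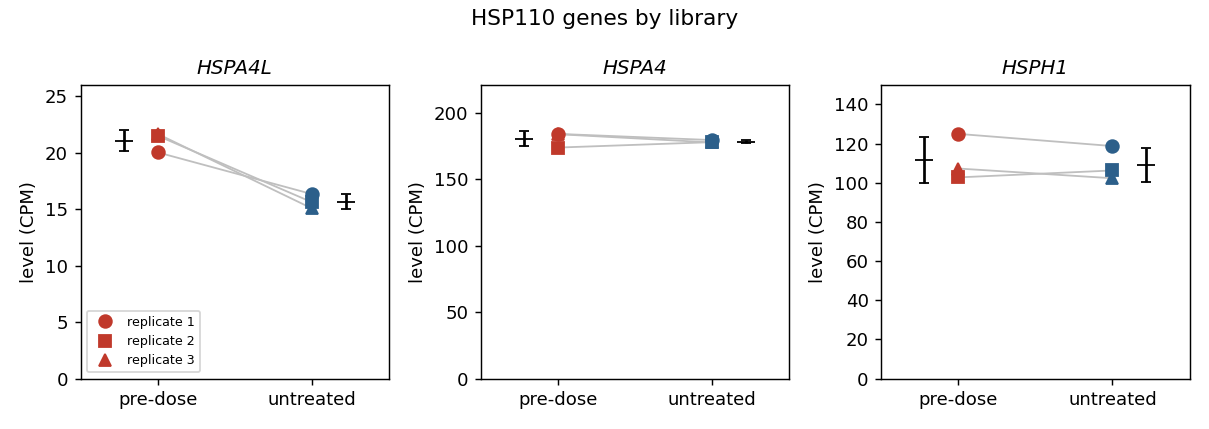
CPM of the 3 HSP110 genes in each library, with pre-dosed libraries left of untreated ones, a symbol for each replicate, grey lines joining equal replicate numbers, and bars for the mean and SD of each group (n = 3 each). HSPA4L reads 20.0 to 21.7 CPM in pre-dosed libraries and 15.1 to 16.3 CPM in untreated libraries, while the groups of HSPA4 and of HSPH1 overlap.

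The start of HSPA4L is shown because the gene belongs to the heat shock family by protein sequence and its promoter could be searched for the element that HSF1 binds. RefSeq on GRCh38.p14 gives 3 promoter windows for the gene, each 250 bases before to 50 after a start site. The 3-unit heat shock element, which alternates GAA and TTC 3 times with 2 free bases between units, on either strand, was in none of them. The shorter 2-unit form is GAANNTTC or TTCNNGAA, each its own reverse complement and also part of the 3-unit element. At least 1 window held this form, and it is in capitals below. Not every window is printed. A match is a run of letters and not a shown binding site, and lack of a match does not show that a site is lacking.

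HSPA4L window without a match, chr4:127781546-127781845, plus strand: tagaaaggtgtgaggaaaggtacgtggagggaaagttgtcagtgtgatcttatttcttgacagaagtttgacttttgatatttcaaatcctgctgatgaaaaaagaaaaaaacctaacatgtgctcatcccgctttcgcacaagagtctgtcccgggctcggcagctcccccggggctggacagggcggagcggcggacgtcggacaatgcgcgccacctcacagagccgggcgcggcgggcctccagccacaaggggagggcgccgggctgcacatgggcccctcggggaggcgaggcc
HSPA4L window with the 2-unit form, chr4:127782072-127782371, plus strand: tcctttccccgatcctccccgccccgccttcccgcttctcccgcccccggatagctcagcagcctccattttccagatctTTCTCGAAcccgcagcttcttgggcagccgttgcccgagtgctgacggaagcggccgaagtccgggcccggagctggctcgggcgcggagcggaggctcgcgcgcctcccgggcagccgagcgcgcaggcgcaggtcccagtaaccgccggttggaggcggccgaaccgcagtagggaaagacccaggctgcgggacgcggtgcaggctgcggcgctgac

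Across all members the differences were small. The median log2 difference of the 68 was 0.0037, against -0.0013 over all 13616 genes, and the median size of the difference, sign aside, was 0.0349, against 0.0571 over all genes. For 66 of the 68 the difference was within 0.2, and the exceptions were HSPA4L and HSPA1L. Together the members took up 1.08, 0.864 and 0.904% of the effective totals of pre-dosed replicates 1 to 3, against 1.06, 0.906 and 0.909% in untreated replicates 1 to 3. The groups overlapped in this sum, and its exact permutation p was 0.8. Pre-dosed cells were higher in all 3 replicate pairs for 8 members (15.6% of all genes were so) and lower in all 3 for 7 members (16.3% of all genes), shares of 11.8% and 10.3%.

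**Figure D2:**
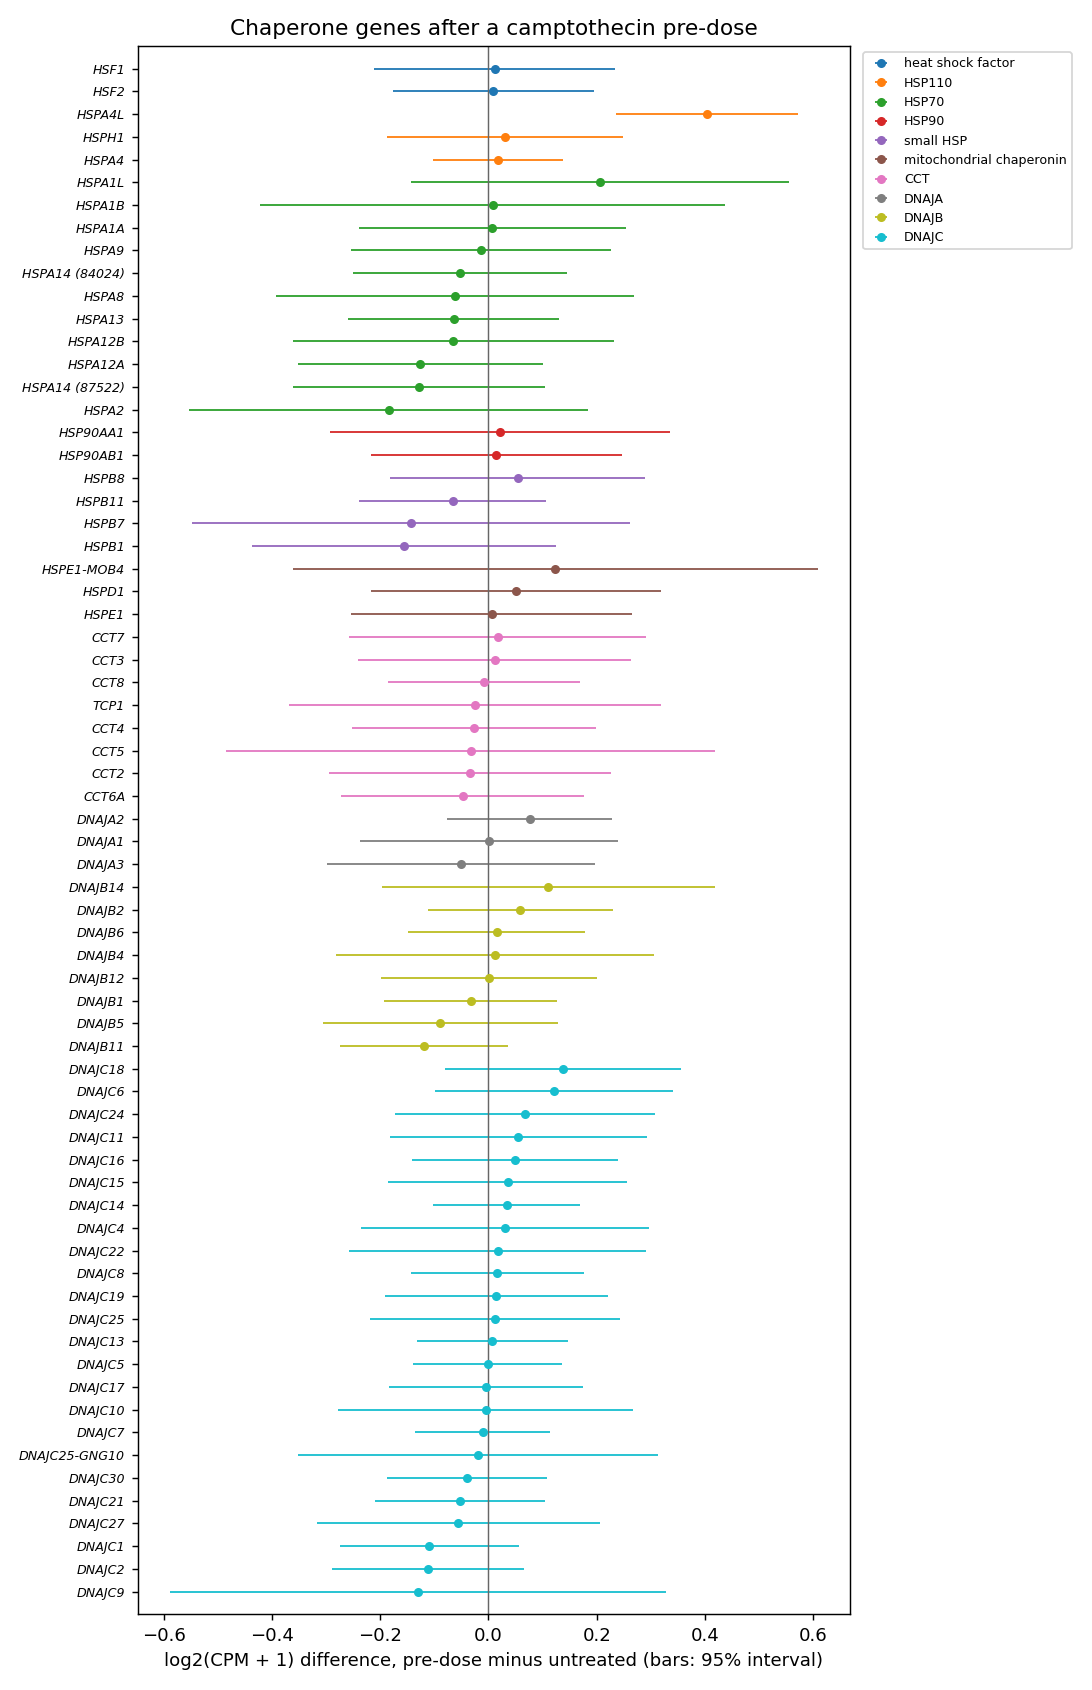
Pre-dose minus untreated log2(CPM + 1) difference of the 68 members by role, with limma estimates as points and 95% intervals as lines. The interval of HSPA4L, 0.24 to 0.57, lies clear of 0; the pair of HSPA14 identifiers is told apart by their last digits.

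The groups also overlapped for the transcription factors of the heat shock response. HSF1, the factor that heat activates, had 91.9, 82.2 and 81.5 CPM in pre-dosed replicates 1 to 3, against 95.8, 76.6 and 81.8 CPM in untreated replicates 1 to 3. HSF2, a relative that binds the same element, had 10.6, 10.4 and 11.2 CPM in pre-dosed replicates 1 to 3, against 11.2, 10.8 and 10.0 CPM in untreated replicates 1 to 3. Their log2 differences were 0.01 each, with 95% intervals of -0.21 to 0.23 for HSF1 and -0.18 to 0.20 for HSF2. HSF1 is regulated at the protein level, which these libraries do not measure.

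Of the 11 HSP70 identifiers, 0 passed limma over all 6 libraries without weights, and their median difference was -0.0617. With library quality weights limma called 5 of the 11, where 27.5% of all genes were called. HSPA1L was higher in pre-dosed cells and HSPA12A, HSPA2 and both HSPA14 identifiers were lower, at adjusted p-values of 0.00356 to 0.0112. HSPA8, the constitutive cytosolic HSP70 and the most abundant of them, had 1762, 1256 and 1316 CPM in pre-dosed replicates 1 to 3, against 1694, 1391 and 1404 CPM in untreated replicates 1 to 3. Pre-dosed replicates 2 and 3 were below all untreated libraries, while pre-dosed replicate 1 was above them all, and the difference was -0.06 (SE 0.14). The stress-inducible HSPA1A and HSPA1B encode nearly the same protein from near-identical genes, so reads may be split between them and only their sum is given. The sum was 332, 225 and 251 CPM in pre-dosed replicates 1 to 3, against 312, 243 and 244 CPM in untreated replicates 1 to 3, with overlapping groups and an exact permutation p of 1. HSPA9, the mitochondrial HSP70, had a difference of -0.01 (SE 0.10). HSPA1L, a relative expressed mainly in testis, stood at 1.81, 1.38 and 2.28 CPM in pre-dosed replicates 1 to 3, against 1.34, 1.69 and 1.27 CPM in untreated replicates 1 to 3, with a difference of 0.21 (SE 0.15) and overlapping groups. This value moved with single libraries: it was 0.09 without pre-dosed replicate 3, 0.32 without pre-dosed replicate 2, and 0.46 with library quality weights, where limma called it (adjusted p 0.00855). The authors' deposited table gave HSPA1L a log2 fold change of 0.56 with an adjusted p of 0.156. HSPA14, an HSP70 relative found on ribosomes, had unweighted differences of -0.13 (SE 0.10) and -0.05 (SE 0.08) under its overlapping identifiers, between which reads may be split.

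A pair of HSP70 genes passed the test in replicates 2 and 3 alone, while in replicate 1 the pre-dosed library was the higher one. HSPA12A (chr10:116671192-116850236), a distant HSP70 relative, had 76.1, 59.9 and 60.9 CPM in pre-dosed replicates 1 to 3, against 72.6, 70.0 and 71.2 CPM in untreated replicates 1 to 3. HSPA2 (chr14:64535905-64546173), an HSP70 best known from male germ cells, had 20.7, 13.3 and 14 CPM in pre-dosed replicates 1 to 3, against 17.8, 18.9 and 17.2 CPM in untreated replicates 1 to 3. In both genes pre-dosed replicate 1 was the highest of the 6 libraries, and pre-dosed replicates 2 and 3 were the lowest. Over all 6 libraries unweighted limma gave -0.13 (SE 0.10) for HSPA12A and -0.18 (SE 0.16) for HSPA2, neither past the threshold. With replicates 2 and 3 alone, limma gave -0.22 (adjusted p 0.0110) for HSPA12A and -0.38 (adjusted p 0.0152) for HSPA2. The difference between replicate 1 and the others in this effect had an unadjusted interaction p of 0.00201 for HSPA12A and 0.000898 for HSPA2, and limma's adjusted values were 0.105 and 0.0668. Of all genes 1.11% passed that interaction test after adjustment, and 0 of the 68 members did, with 8 members at an unadjusted p under 0.05 (12.3% of all genes). The authors' deposited table gave HSPA12A a log2 fold change of -0.21 with an adjusted p of 0.0498, just under the threshold, the 1 member called lower there (1.44% of all genes), and HSPA2 -0.34 with 0.0564.

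The small heat shock proteins had a median difference of -0.10 over 4 genes. By symbol these include HSPB11, a subunit of the intraflagellar transport machinery of cilia, at -0.07 (SE 0.07). HSPB1 (chr7:76302544-76304295), known as HSP27 and the most abundant member per length, had 825, 649 and 656 CPM in pre-dosed replicates 1 to 3, against 896, 720 and 753 CPM in untreated replicates 1 to 3. It was lower in pre-dosed cells within each replicate number, by log2 differences of -0.12, -0.15 and -0.20, although the groups overlapped. Limma over all 6 libraries gave -0.16 (SE 0.12, unadjusted p 0.231), while with the replicate block the unadjusted p was 0.000942 and the adjusted p 0.245. Under the block, 2 members had an unadjusted p under 0.05 in each direction, HSPA4L and DNAJC6 higher (5.2% of all genes) and HSPB1 and DNAJB11 lower (5.4% of all genes), and 0 members or other genes passed after adjustment. HSPB7 (chr1:16014028-16019594), a small heat shock protein of heart and skeletal muscle, had 28.8, 37.4 and 34.3 CPM in pre-dosed replicates 1 to 3, against 28.0, 42.3 and 42.2 CPM in untreated replicates 1 to 3. In replicates 2 and 3 alone, both passed in limma, HSPB1 at -0.17 (adjusted p 0.0127) and HSPB7 at -0.23 (adjusted p 0.0316). With HSPA12A and HSPA2 these were the 4 members called lower there, 5.88% of the members beside 3.47% of all genes. HSPB8, which works with BAG3 in the removal of misfolded protein, had 26.3, 29.2 and 27.6 CPM in pre-dosed replicates 1 to 3, against 30.7, 25.5 and 24.1 CPM in untreated replicates 1 to 3, lower in replicate 1 and higher in the others. With library quality weights limma also called HSPB1, HSPB7 and HSPB8, at -0.19, -0.27 and 0.16, where 27.5% of all genes were called.

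**Figure D3:**
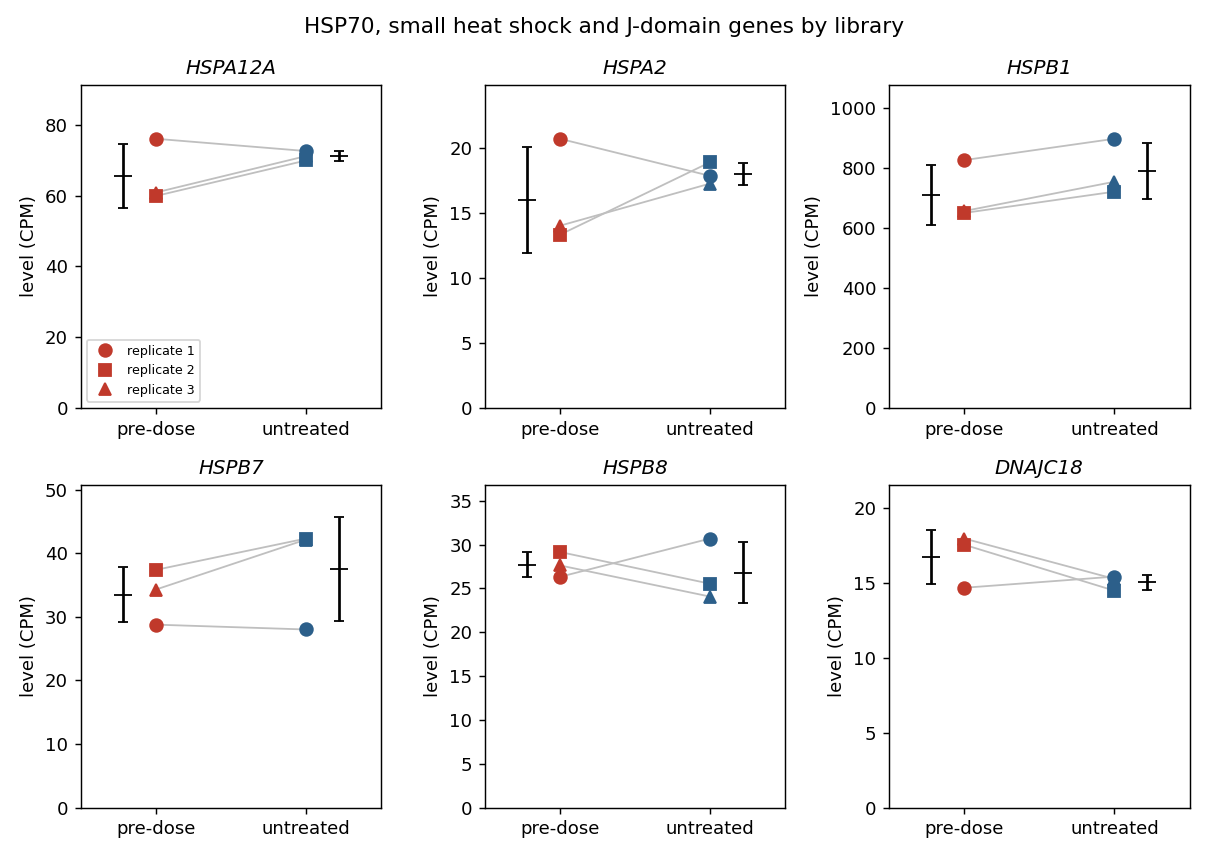
CPM of HSPA12A, HSPA2, HSPB1, HSPB7, HSPB8 and DNAJC18 in each library, with pre-dosed values left of untreated ones, grey lines joining equal replicate numbers, and bars for the mean and SD of each group (n = 3 each). For HSPB1 all 3 lines are lower at the pre-dosed end, and for the other 5 genes the line of replicate 1 slopes the other way from those of replicates 2 and 3.

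In HSP90 and the chaperonins the groups overlapped for every gene. HSP90AA1, the stress-inducible cytosolic HSP90, had 1449, 1071 and 1161 CPM in pre-dosed replicates 1 to 3, against 1392, 1114 and 1111 CPM in untreated replicates 1 to 3. HSP90AB1, the constitutive one, had 1256, 1059 and 1083 CPM in pre-dosed replicates 1 to 3, against 1262, 1050 and 1054 CPM in untreated replicates 1 to 3. The log2 differences were 0.02 (95% interval -0.29 to 0.34) and 0.01 (95% interval -0.22 to 0.25), with overlapping groups. HSPD1, or HSP60, the barrel of the mitochondrial chaperonin, had 343, 266 and 285 CPM in pre-dosed replicates 1 to 3, against 323, 271 and 267 CPM in untreated replicates 1 to 3. HSPE1, its lid, differed by 0.01 (SE 0.11). HSPE1-MOB4, a read-through annotation over HSPE1 and MOB4, had 3.95, 3.60 and 3.84 CPM in pre-dosed replicates 1 to 3, against 2.12, 4.55 and 3.91 CPM in untreated replicates 1 to 3. These genes overlap each other, HSPD1 on the opposite strand, and the strand setting of the counting is not given in the sources used here, so their split is uncertain. The 8 CCT subunits ranged from -0.05 (CCT6A) to 0.02 (CCT7), with 0 called and a median of -0.0260. CCT7, the subunit with the highest level per length, had 354, 282 and 301 CPM in pre-dosed replicates 1 to 3, against 356, 284 and 286 CPM in untreated replicates 1 to 3.

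The 35 J-domain proteins, which select the substrates of HSP70, had a median difference of 0.0071 and ranged from -0.13 to 0.14, and 0 passed limma over all 6 libraries without weights. With library quality weights limma called DNAJC18, DNAJC6 and DNAJA2 higher in pre-dosed cells and DNAJC2 lower, where 27.5% of all genes were called. DNAJA1, a general partner of HSPA8 in the cytosol, had 170, 134 and 139 CPM in pre-dosed replicates 1 to 3, against 159, 139 and 143 CPM in untreated replicates 1 to 3. DNAJB1, the heat-inducible partner, whose gene overlaps TECR on the opposite strand, had 116, 102 and 105 CPM in pre-dosed replicates 1 to 3, against 112, 112 and 105 CPM in untreated replicates 1 to 3. The groups of both genes overlapped. DNAJB11, a J-domain protein of the endoplasmic reticulum, had 49.1, 50.04 and 50.9 CPM in pre-dosed replicates 1 to 3, against 51.9, 58.5 and 53.0 CPM in untreated replicates 1 to 3. Its groups did not overlap, with a log2 difference of -0.12 (SE 0.07, unadjusted limma p 0.112). DNAJC1, another protein of that compartment, had 17.1, 18.4 and 18.6 CPM in pre-dosed replicates 1 to 3, against 19.1, 20.3 and 19.2 CPM in untreated replicates 1 to 3, with a difference of -0.11 (SE 0.07). DNAJC30, a mitochondrial protein and singled out after its values were seen, had 17.7 to 17.9 CPM in pre-dosed libraries and 18.2 to 18.4 CPM in untreated libraries, a difference of -0.04 (SE 0.06). DNAJC18 had the largest positive difference of the DNAJC genes, 0.14 (SE 0.09), from 14.7, 17.6 and 18.0 CPM in pre-dosed replicates 1 to 3 against 15.4, 14.5 and 15.3 CPM in untreated replicates 1 to 3. Its difference was 0.22 without pre-dosed replicate 1, 0.09 without pre-dosed replicate 3, and 0.24 with library quality weights (adjusted limma p 0.00479). DNAJC6, an uncoating factor of clathrin vesicles also named after its values were seen, had 34.8, 31.7 and 31.3 CPM in pre-dosed replicates 1 to 3, against 33.9, 28.5 and 27.6 CPM in untreated replicates 1 to 3. DNAJC2, a ribosome-bound J-domain protein, had 17.1, 18.7 and 17.3 CPM in pre-dosed replicates 1 to 3, against 18.1, 20.2 and 19.4 CPM in untreated replicates 1 to 3. DNAJC9, a chaperone of histones, had 104, 62.2 and 74.6 CPM in pre-dosed replicates 1 to 3, against 104, 77.9 and 78.6 CPM in untreated replicates 1 to 3, and it passed in limma with the block and without replicate 1 (-0.20, adjusted p 0.0294). DNAJA2, DNAJA3, DNAJB14 and DNAJC8 differed by 0.08, -0.05, 0.11 and 0.02 in the unweighted fit, none past the threshold there, while the weighted fit gave DNAJA2 0.13 with an adjusted p of 0.0106. Like DNAJB1, the genes DNAJB11, DNAJC2, DNAJC9 and DNAJC30 overlap other listed genes, DNAJB11 on both strands. The strand setting of the counting is not given, so how reads were split there is uncertain.

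The larger split among the chaperone genes was between replicate numbers. A principal component analysis of the 68 members put 70.1% of their variance on one axis, where pre-dosed replicate 1 stood at -1.23 and untreated replicate 1 at -1.27. The remaining libraries stood at 0.484 to 0.983 on it. Over all genes tested the first axis held 59.4% of the variance and set the same libraries apart. There pre-dosed replicate 1 stood at -18.0 and untreated replicate 1 at -20.6, against 6.94 to 16.4 for the others. With the treatment in the model, limma called 29 of the 68 members higher in replicate 1 than in replicates 2 and 3 (42.6%, against 20.3% of all genes) and 8 lower (11.8%, against 20.6% of all genes). The median of this log2 difference was 0.0961 over the members and -0.0118 over all genes. Both replicate 1 libraries were the highest 2 of the 6 for 32 members (47.1%, against 27.2% of all genes) and the lowest 2 for 11 members (16.2%, against 28.3% of all genes). The 8 CCT genes were all called higher in replicate 1, by 0.14 (CCT8) to 0.52 (CCT5), as were HSP90AA1 by 0.35 (SE 0.04) and HSP90AB1 by 0.25 (SE 0.03). So were 6 of 11 HSP70 identifiers, HSPB1 by 0.31 (SE 0.03), HSPD1 by 0.29 (SE 0.04), HSPH1 by 0.22 and HSF1 by 0.22. HSPB7 was lower, at -0.44 (SE 0.07), and the J-domain proteins were mixed, with 8 higher and 7 lower of 35. These limma calls are at an adjusted p of 0.05, and replicate 1 holds 1 library per group, so the offset is a difference between libraries whose source was not tested. The mesenchymal genes FN1 and COL1A1 were also offset, with FN1 at 13191 and 12585 CPM in the pre-dosed and untreated replicate 1 libraries, against 18993 to 20411 CPM in replicates 2 and 3. COL1A1 was at 139 and 160 CPM in the replicate 1 libraries, against 258 to 428 CPM in the others. VIM was higher in replicate 1, at 10806 and 11123 CPM against 8644 to 9112 CPM, and so was TUBB3, at 374 and 400 CPM against 255 to 284 CPM. The part of such differences in the offset of the chaperone genes was not tested.

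**Figure D4:**
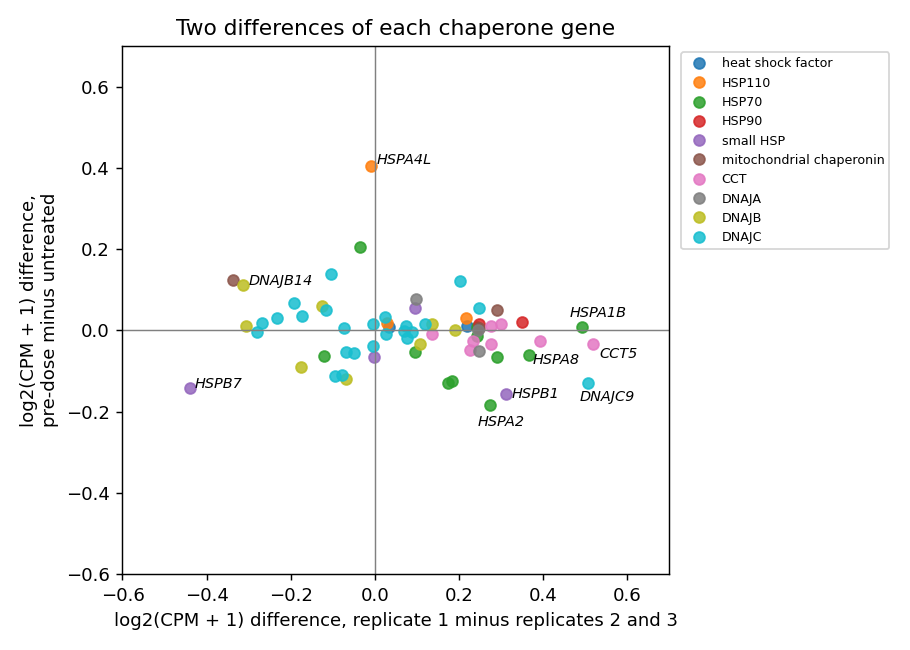
For each member, the log2(CPM + 1) difference of replicate 1 minus replicates 2 and 3 (horizontal) and of pre-dose minus untreated (vertical), coloured by role. HSPA4L lies at 0.40 on the vertical axis and -0.01 on the horizontal axis, and the CCT genes lie at 0.14 to 0.52 on the horizontal axis with vertical values within 0.05 of 0.

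Promoters were examined for the heat shock element, since several members are well-known targets of HSF1. RefSeq windows were found for 59 of the 68 members. The 3-unit element occurred in windows of 6 of these 59 genes (10.2%), against 166 of 27305 genes in the table of promoters (0.608%). The 2-unit form occurred in 20 of the 59 (33.9%), against 16.2% of all genes, and every 3-unit match also holds it. The 6 genes were HSPA8, HSP90AA1, HSP90AB1, HSPD1, DNAJA1 and DNAJB6. All 6 were called higher in replicate 1, as were 42.6% of the members and 20.3% of all genes, with a median difference of 0.268. Their pre-dose minus untreated differences ranged from -0.06 to 0.05. Of the 53 genes with windows and no such match, 20 were called higher in replicate 1 and 7 lower, with a median of 0.0744. Among these 53 were HSPA4L, HSPA1A, HSPA1B, HSPH1, DNAJB1, HSPB1 and HSPE1, which the list below counts as heat-induced HSF1 targets. Lack of the 3-unit match therefore does not show that an HSF1 site is lacking. Whether the element has a part in the replicate 1 offset was not tested. HSPA8, HSP90AB1 and HSP90AA1 were also among the most abundant members per length. The windows of 4 of the 6 genes, the most abundant of these 6 per length, are printed with the 3-unit matches in capitals.

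HSPA8 window, chr11:123062087-123062386, minus strand: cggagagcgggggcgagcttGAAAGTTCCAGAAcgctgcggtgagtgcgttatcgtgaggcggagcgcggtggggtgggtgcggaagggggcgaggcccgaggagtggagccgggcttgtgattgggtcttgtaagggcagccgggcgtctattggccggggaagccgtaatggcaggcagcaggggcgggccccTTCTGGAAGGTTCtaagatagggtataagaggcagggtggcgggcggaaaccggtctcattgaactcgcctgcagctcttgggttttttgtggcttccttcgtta
HSP90AA1 window, chr14:102086995-102087294, minus strand: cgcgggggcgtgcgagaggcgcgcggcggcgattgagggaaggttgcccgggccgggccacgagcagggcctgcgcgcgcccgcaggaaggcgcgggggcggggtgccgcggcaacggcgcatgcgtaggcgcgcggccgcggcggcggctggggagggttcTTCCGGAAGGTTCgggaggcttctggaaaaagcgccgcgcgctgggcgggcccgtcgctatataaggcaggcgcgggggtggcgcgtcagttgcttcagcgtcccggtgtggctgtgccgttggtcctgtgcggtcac
HSP90AB1 window, chr6:44247693-44247992, plus strand: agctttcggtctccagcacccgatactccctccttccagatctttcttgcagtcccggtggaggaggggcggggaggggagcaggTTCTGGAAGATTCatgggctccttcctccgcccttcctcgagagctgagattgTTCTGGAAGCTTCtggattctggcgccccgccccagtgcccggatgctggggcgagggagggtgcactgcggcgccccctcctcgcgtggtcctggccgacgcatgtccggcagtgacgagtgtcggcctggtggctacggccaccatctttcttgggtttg
HSPD1 window, chr2:197499791-197500090, minus strand: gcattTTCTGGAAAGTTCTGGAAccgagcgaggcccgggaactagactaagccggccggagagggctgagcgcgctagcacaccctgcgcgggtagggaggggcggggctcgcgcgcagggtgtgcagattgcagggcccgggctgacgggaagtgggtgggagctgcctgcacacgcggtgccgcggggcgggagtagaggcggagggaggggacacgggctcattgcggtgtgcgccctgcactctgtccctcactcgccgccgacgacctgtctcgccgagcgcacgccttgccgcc

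HSPA8 and HSP90AB1 each carried a pair of separate elements, HSP90AA1 carried 1, and the pair of matches in HSPD1 shared letters. In HSPA8 the matches began 230 and 55 bases before the start site, in HSP90AB1 165 and 112 bases before, and in HSP90AA1 88 bases before it.

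Per length the members spanned a wide range, from HSPB1 at 708 CPM per kilobase of exon, HSPA8 at 545, HSP90AB1 at 378 and HSP90AA1 at 302, through CCT7 at 152 and HSPD1 at 114, to HSPA1L at 0.64. DNAJA1 was the highest J-domain protein at 61.9, ahead of DNAJC8 at 50.7 and DNAJB1 at 44.5 CPM per kilobase. HSPA4L, at 1.65, was among the scarce members, and the summed HSP110 level was 313 ± 15.5 CPM in pre-dosed cells and 303 ± 10.2 CPM in untreated cells (SD, n = 3 each).

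**Figure D5:**
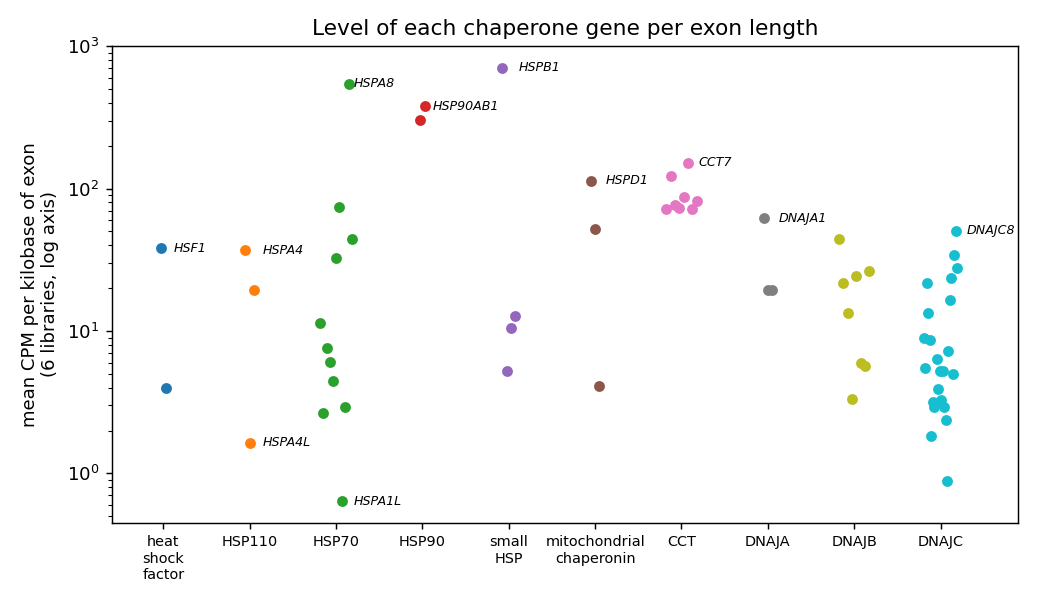
Mean CPM per kilobase of exon over all 6 libraries on a log axis, with 1 point per member and the members arranged by role. Levels run from 0.64 for HSPA1L to 708 for HSPB1, and HSPA4L, at 1.65, is the lowest point of the HSP110 genes.

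The partners of these chaperones were examined through 50 co-chaperones and neighbouring chaperones outside the set, all 50 of them measured. Of these 0 passed limma over all 6 libraries, and their median difference was -0.0168. At an unadjusted p under 0.05 limma gave 1 of them lower, SERPINH1 (0.808% of all genes), and 0 higher (1.25% of all genes). With replicates 2 and 3 alone limma called 3 of the 50 lower in pre-dosed cells, namely SERPINH1, VBP1 and PTGES3 (3.47% of all genes), and 0 higher (2.89% of all genes). SERPINH1, or HSP47, the collagen chaperone of the endoplasmic reticulum, had 492, 465 and 458 CPM in pre-dosed replicates 1 to 3, against 516, 524 and 523 CPM in untreated replicates 1 to 3. All its pre-dosed libraries were below all untreated ones, with a log2 difference of -0.14 (SE 0.05, unadjusted limma p 0.0281). SERPINH1 was the 1 gene of the 50 that was lower without overlap (3.19% of all genes). GRPEL2 was the 1 gene that was higher without overlap (3.36% of all genes), at 0.12 (SE 0.08). The authors' deposited table called SERPINH1 (adjusted p 0.0295) and VBP1, a prefoldin subunit (adjusted p 0.0430), lower in pre-dosed cells (1.44% of all genes). It called 0 of the 50 higher (1.61% of all genes). PTGES3, the HSP90 co-chaperone p23, had 197, 139 and 157 CPM in pre-dosed replicates 1 to 3, against 186, 174 and 166 CPM in untreated replicates 1 to 3. A list of 22 heat-induced HSF1 targets, many of them members, had a median pre-dose difference of 0.0068, and 1 of its genes, HSPA4L, was among the calls in replicates 2 and 3 alone as higher, with 2 as lower (HSPB1 and SERPINH1). In the same list 16 genes were called higher in replicate 1 by limma (20.3% of all genes) and 1 lower, CRYAB (20.6% of all genes). BAG3, a classic heat-inducible co-chaperone, had 231, 218 and 221 CPM in pre-dosed replicates 1 to 3, against 232, 214 and 216 CPM in untreated replicates 1 to 3, with overlapping groups.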

How the data were processed

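Poly-A RNA of 6 hTERT RPE-1 libraries was sequenced as paired 150-base reads, per the labels' protocols. The authors deposited 1 table of 13773 lines with log2 CPM for each library, and 77 lines that repeated an identifier were dropped. The values were taken as counts scaled to an effective total for each library. Whether that total included a scaling factor between libraries is not known. At the inferred totals the lowest values came out as hundredths of reads, so the counts behind them were taken as estimates and not whole. The authors deposited their own comparison beside them, with log2 fold changes, a moderated statistic and a log-odds value (both scores here), and p-values with and without adjustment, as its headers name them. Its fold changes ran untreated minus pre-dose in all 418 of the authors' calls and were turned round here. Build hg38 and the tools DRAGEN, bcl2fastq, limma and edgeR appear in the submitters' processing notes, with no versions or roles. How reads were counted, with which annotation and strand setting, is not given in the sources used here.

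CPM were recovered by raising 2 to the deposited value. A count test had been laid down for whole counts only, and for normalized values limma-trend (limma 3.58.1, R 4.3.3) on log2(CPM + 1). That was run on all 6 libraries, without weights or block, for the 13616 genes averaging 1 CPM or more, with two-sided p-values adjusted by Benjamini-Hochberg over all of them and a threshold of 0.05. This scale understates changes of low genes. An offset of replicate 1 and its interaction with the treatment were fitted in the same way. Only the treatment fit over all 6 libraries, without weights or block, was tested on simulated data, which held no replicate 1 offset. At the effective totals 3 counts corresponded to 0.0944 to 0.114 CPM, which covers counting error only.

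Correlations across genes of library deviations from their group means were 0.66, 0.45 and 0.18 for same-numbered libraries, so equal numbers were treated as pairs, although pre-dosed replicate 2 with untreated replicate 3 gave 0.51 and pre-dosed replicate 3 with untreated replicate 2 gave 0.28, each above the same-numbered value of its pre-dosed library. The labels do not state the pairing.

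Gene positions and exon lengths came from GENCODE release 29, in which all 68 members were found, and promoter windows from RefSeq on GRCh38.p14. Members, gene lists and HSPA4L as the gene of interest were chosen with earlier results of these data known. The genes named were HSPA4L, HSF1 and HSF2, and in each role group the members past the threshold over all 6 libraries, with the block, in replicates 2 and 3 alone or in the deposited comparison, the member with the smallest p in each direction, and the most abundant member per length, and others were named after their values were seen. Alternatives varied the pseudocount, filter, scaling, weights, block and libraries used.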

Additional observations from a re-analysis of the deposited data

How the results depend on the processing

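Replicate 1 and the weighting of libraries decided which members passed; other pseudocounts, filters, scalings and voom left 0 members past the threshold. A replicate block over all 6 libraries changed no call, with 0 members, 0 genes and 0.40 for HSPA4L. Leaving out 1 library or both of a replicate number gave 0 to 5 members and 0 to 866 genes past the threshold, the upper values without replicate 1, a median member difference of -0.052 to 0.031, lowest without pre-dosed replicate 1, and a difference of 0.36 to 0.47 for HSPA4L. With the replicate block and without replicate 1, 7 members and 1227 genes (9.01%) passed, HSPA8 (-0.12) and DNAJC9 (-0.20) among the members, and HSPA4L was at 0.47, with DNAJA1 at -0.043 and HSPE1-MOB4 at -0.15. Library quality weights in limma-trend, whose estimation stopped before convergence, gave 13 members, 3744 genes and 0.48 for HSPA4L, with DNAJA1 at -0.034, DNAJA3 at 0.014 and HSPE1-MOB4 at -0.041. The weighted voom fit, added after seeing the data, gave 1 member, 108 genes and 0.49 for HSPA4L, with DNAJA1 at -0.029 and HSPE1-MOB4 at -0.11. DNAJA1 was at -0.0002 under median-ratio scaling. Beyond fewer libraries or other weights, the cause was not tested.

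Differences of these named genes changed sign when libraries were left out, with lowest and highest values of -0.057 and 0.10 for HSF1, -0.061 and 0.052 for HSF2, -0.21 and 0.031 for HSPA8, -0.10 and 0.13 for HSP90AA1, and -0.062 and 0.10 for HSP90AB1. They were -0.016 and 0.19 for HSPB8, -0.055 and 0.14 for HSPD1, -0.15 and 0.32 for HSPE1-MOB4, -0.076 and 0.12 for CCT7, and -0.14 and 0.020 for CCT6A. Among J-domain proteins they were -0.10 and 0.065 for DNAJA1, -0.13 and 0.037 for DNAJA3, -0.087 and 0.022 for DNAJB1, -0.020 and 0.20 for DNAJB14, and -0.025 and 0.062 for DNAJC8. Of 498 alternative values of the 25 named genes besides HSPA4L, 435 kept direction and side of the threshold, 46 changed sign and 17 passed newly. The offset of replicate 1 was called for 37 members, and for 32 to 37 under its alternatives, and its interaction with treatment for 0 throughout; the interaction was not run with library quality weights. HSPA1L, with a mean of 1.63 CPM, came closest to the 0.0944 to 0.114 CPM that 3 counts are worth.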
